A study of Homo sapiens with 47 samples.

Results

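The regions described here are the PTBP1 clusters that were found from 10000000 cells and again at each of 3 lower inputs, 100000, 10000 and 1000 cells. A cluster is a short interval of RNA on 1 strand that the authors called as a contact site of the protein. A 10000000-cell cluster was taken as a member when it shared 1 nt or more, strand included, with a cluster of each lower-input list. This held for 13490 of 964422 clusters, or 1.4%. Of the rest, 113762 overlapped exactly 2 of the lower-input lists, 301096 overlapped exactly 1 and 536074 overlapped none. The number of members was set mainly by the 1000-cell list, which holds 30911 clusters: without that list the rule would pass 124133.

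The study mapped contacts of proteins with RNA by uSpyCLIP-seq in Lenti-X 293T, a line derived from human embryonic kidney and used to make lentivirus. Stable lines that expressed the studied protein received UV-C at 400 mJ/cm2 on ice, their RNA was cut with RNase I, and the crosslinked protein was captured through the covalent bond between a SpyTag peptide and the SpyCatcher protein. Each PTBP1 input and the RBFOX2 experiment from 10000000 cells had 2 libraries, and SpyCatcher 1.0 and 2.0 at 20 and 40 µg had 1 library each. The catalytically dead nucleases dPspCas13b and dRfxCas13d, profiled with UV and without guide RNA in 3 libraries each, serve below as proteins of another kind. All these groups are 293T lines that carry an introduced protein, so the contacts are those of the introduced protein in this line. The labels of the SpyCatcher libraries name no captured protein, and only the names of their site lists say PTBP1.

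PTBP1 is an RNA-binding protein with 4 RNA recognition motifs that binds pyrimidine-rich RNA and is best known for repressing exons, many of them used in neurons. RBFOX2 is a splicing regulator of another family whose preferred RNA word is (U)GCAUG, and it binds mostly in introns. Both also bind outside introns, and PTBP1 has described roles at 3′ ends of transcripts, in RNA stability and in translation.

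Each group has 1 site list, which places clusters and their strands on hg38 without a score or read count. The depth behind a cluster is therefore unknown, replicate error cannot be had, and no p-value is given. Parentheses hold Clopper-Pearson exact 95% limits, which reflect counting error alone, and neighbouring clusters of 1 transcript are not independent. Membership was chosen from the 4 PTBP1 input lists, so overlaps among those lists are descriptions. The RBFOX2, SpyCatcher and Cas13 lists did not enter the rule.

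Sequences were read for members inside the RefSeq windows of GRCh38.p14 that run from 250 nt before to 50 nt after the annotated start of a gene. These 35116 windows held 69 of the 13490 members, so the sequences show members near gene starts and not those deep in introns. The ones below were chosen, after they were read, to show the pyrimidine-rich runs that prevailed and members that lack them. Each is the whole member, 5′ to 3′ on its own strand, and capitals mark the longest stretch that all 4 PTBP1 input lists share. Members are placed by the first base of the annotated start, counted as 0. AURKB, a mitotic kinase, has members at chr17:8210273-8210296 and chr17:8210227-8210250 on the minus strand. TFAP2A, a developmental transcription factor, has its member at chr6:10412371-10412394 on the minus strand, from -3 to 20.
AURKB, upstream member: tctctctttttctctgcTTCTcac
AURKB, downstream member: gctctcctcccCCTTTCTCtctaa
TFAP2A: cccacactTTCTTTCtcacacacg
Of the bases of these members, 22 of 24, 21 of 24 and 18 of 24 were C or T. All 3 overlapped RBFOX2. The upstream AURKB member overlapped 3 SpyCatcher lists, the downstream one none, and the TFAP2A member all 4.

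Ribosomal protein mRNAs begin with a run of pyrimidines, the terminal oligopyrimidine tract, and the members at the starts of RPL24 (chr3:101686690-101686719, minus strand) and RPS24 (chr10:78033860-78033874, plus strand) lie over it. XIST, the long noncoding RNA that coats the inactive X chromosome, has a member across its annotated start (chrX:73852701-73852717, minus strand).
RPL24: tctttcttttcgccatcTTTTgtctttccg
RPS24: gttctctttTCCTcc
XIST: gccatATTTCTTACTCt
The RPL24 member had 26 of 30 bases C or T and the RPS24 member 14 of 15. The XIST member had 76.5%. RPS24 was the one of these 3 without RBFOX2 overlap, and XIST overlapped 3 SpyCatcher lists, while RPL24 and RPS24 overlapped none.

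Further members lay in a window of a gene on the opposite strand. Those of NUP62, a nuclear pore protein (chr19:49929041-49929065, minus strand), and of FXR2, an RNA-binding relative of FMR1 (chr17:7613999-7614011, minus strand), are shown beside members low in pyrimidines. These are the members at the starts of TMEM259 (chr19:1021118-1021127, minus strand) and of SNRPB, a core protein of spliceosomal particles (chr20:2470764-2470792, minus strand).
NUP62: gcctttccttcCCACTCCTagggtc
FXR2: cTTTCAtcttcct
TMEM259: gGACGAgaaa
SNRPB: gctgcatttccggtagcggcggcgggaaa
NUP62 had 76% C or T bases and FXR2 92.3%, against 10% in TMEM259 and 41.4% in SNRPB. The SNRPB member has no capitals because no single base of it was in all 4 lists. Of all 37 members of at most 30 nt whose sequence was read, 20 had at least 75% C or T bases and 6 had under 50%, and the median was 76%. The other 4 under 50% were in SNORD58B, ATF7, ENO1 and B4GALT5.

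One member lay in an annotated miRNA hairpin. It covers 11 nt of MIR4766, chr22:40813917-40813927 on the minus strand, inside a hairpin of 76 nt at chr22:40813883-40813958, and capitals here mark the whole member.
MIR4766 hairpin: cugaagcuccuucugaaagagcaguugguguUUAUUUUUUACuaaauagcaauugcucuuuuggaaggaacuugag
This member overlapped RBFOX2 and 1 SpyCatcher list. It was the only member placed on a miRNA gene among the genes used.

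C and T made up 72.2% (70.4 to 73.9) of the 2537 member bases inside the windows. They made up 70.8% (70.2 to 71.3) of the bases of the 3634 other clusters there, a difference within the counting error of the members, and 49.6% of all window bases on the gene strand. T was 38.3% of member bases and C 33.9%.

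Short words were counted in 41-nt pieces on the strand of the cluster, centred on the longest shared stretch of 64 members or on the middle of 3120 other clusters. All 41-nt pieces of the windows on the gene strand gave the background. TCTT was in 59.4% (46.4 to 71.5) of member pieces, 35.9% of pieces of other clusters and 13.7% of all pieces. CTCT was in 48.4% (35.8 to 61.3), 36.5% and 18.1% of the same 3 sets. TTCT was in 53.1% (40.2 to 65.7), 37.4% and 16.4%. The member intervals lay above all pieces for these 3 words, and above the other clusters for TCTT and TTCT but not for CTCT. The 2 sets of pieces were centred differently and not matched for cluster width. A piece around a narrow cluster holds more flank, so these values do not separate membership from width.
The longer word TCTCT was in 29.7% of member pieces against 15.8% and 5.12%. CTTTC was in 26.6% against 17.9% and 5.04%, and the run TTTTT in 12.5% (5.55 to 23.2) against 10.4% and 4.24%. The RBFOX word GCATG was in 1 of the 64 member pieces (1.56%, 0.0396 to 8.40), against 1.60% in other clusters and 2.82% in all pieces. These words overlap one another, since TCTCT holds CTCT, and only the strand of the cluster was searched. With the whole cluster and 20 nt on each side, member pieces were longer (median 70 nt against 46 nt), and TCTT was in 66.7% of members against 38.7% of other clusters.

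Members were wide. Their median width was 29 nt (quartiles 16 and 53, from 3 to 791 nt), against 6 nt (5 and 9, from 3 to 318 nt) in the other clusters. With clusters at most 10 nt apart merged first, the members' median was 65 nt. Among the others, width followed the number of lower inputs: the median was 12 nt with exactly 2, 7 nt with exactly 1 and 6 nt with none. Of the members, 65.8% were over 20 nt and 27.5% at least 50 nt, against 4.35% and 0.427% of the other clusters. A wider interval has more bases that can meet another list. The share of clusters that were members was 0.0370% at 3 nt, 0.0905% at 4 to 6 nt, 0.489% at 7 to 10 nt, 2.44% at 11 to 20 nt and 17.7% over 20 nt.

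The members covered 6.95% of the nucleotides of the 10000000-cell list. They held 58.3% of the clusters of the 1000-cell list, 11.2% of those of the 10000-cell list and 3.09% of those of the 100000-cell list. The clusters that met a member narrowed with the input, from a median of 14 nt at 100000 cells to 8 nt at 10000 and 5 nt at 1000. They covered a median of 85%, 58.1% and 20% of the member.

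A member was often met by several clusters at a lower input: 43.3% had more than 1 at 100000 cells, 49.2% at 10000 and 18.4% at 1000. At 1000 cells, 93.7% of the clusters that met a member lay wholly inside it. Only 13 members had identical ends in all 4 lists. At least 1 base was shared by all 4 lists in 11984 members (88.8%), while in 1506 the lower-input clusters touched different parts. The longest shared stretch had a median of 5 nt where there was one. It reached 20 nt in 180 members and 50 nt in 15. At the edge of the rule, 211 members met at least 1 list by a single base and were 9 nt wide in the median. Another 469 clusters missed the rule by at most 1 nt and were 10 nt wide in the median.

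The 10 members with the longest stretch shared by all 4 lists were led by 1 in XIST. It is 791 nt wide (chrX:73827198-73827988, minus strand), 728 of its bases were in all 4 lists, and 493 of them ran without a break. Second was a member of 215 nt over SNORD133, a small nucleolar RNA gene (chr12:50456563-50456777, plus strand, longest shared stretch 139 nt). After it came one of 297 nt in USB1, which encodes a nuclease that trims a spliceosomal RNA (chr16:58020558-58020854, plus strand, 107 nt).
The rest were in IRS4 (80 nt), DDX17 (77 nt), SNORD97 (72 nt), SRRM2 (69 nt), BRK1 (63 nt), a member outside annotated genes at chr17:43272729-43272804 (59 nt) and MATR3 (57 nt). All 10 overlapped RBFOX2 and all 4 SpyCatcher lists. Small nucleolar RNA genes lie inside host genes, and most have no strand in the tables used, so a member over one may belong to its host transcript.

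The members overlapped the RBFOX2 list far more often than the other clusters did. RBFOX2 clusters met 7.92% of all 10000000-cell clusters and 78.1% of the members (77.4 to 78.8), against 6.93% (6.88 to 6.98) of the others. The share was 1.09% with no lower input, 7.57% with exactly 1 and 32.7% with exactly 2. The RBFOX2 list holds 117590 clusters, and 18.5% of them lay on members.

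The width of the members moved with this result. Against other clusters of the same width class the comparison was 78.1% to 34.0%, and against clusters of exactly the same width 77.7% to 44.3% over the 13233 members with such a match. Against clusters of exactly 2 lower inputs in the same width class it was 78.1% to 46.7%. In each width class the interval of the members lay above that of clusters with exactly 2 lower inputs: 44.6% (41.6 to 47.6) against 21.2% (20.7 to 21.6) at 7 to 10 nt, and 89.0% (88.3 to 89.6) against 56.2% (55.6 to 56.8) over 20 nt. Among clusters of 3 nt, 21 of 62 members overlapped RBFOX2 (33.9%, 22.3 to 47.0), against 10.3% with exactly 2 lower inputs. With the other clusters weighted to the genes of the members, the comparison was 78.2% to 13.7% over 13130 members. Without the 10 genes with most members it was 77.7% to 6.86%. The part of transcript abundance, which no list measures, was not tested.

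**Figure D1:**
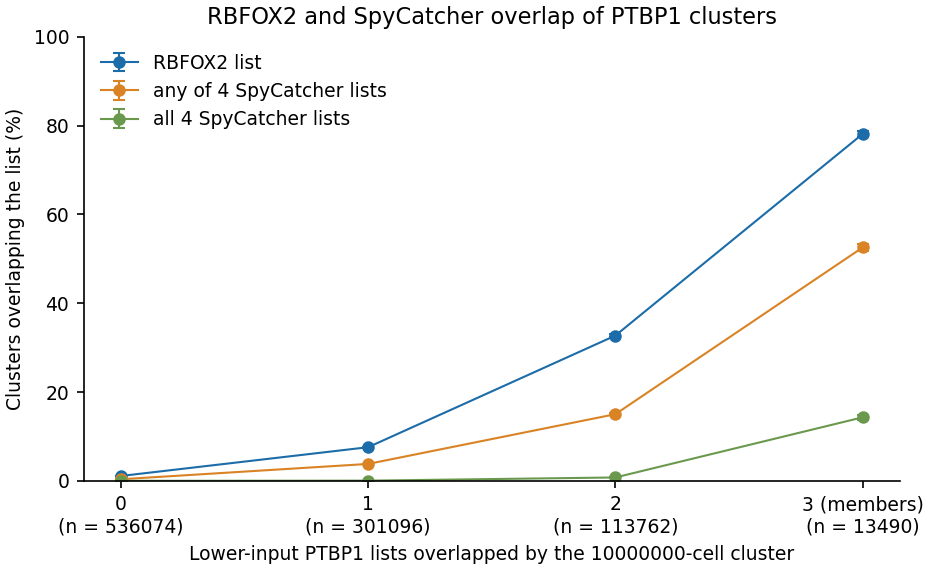
Share of 10000000-cell PTBP1 clusters that overlap the RBFOX2 list, any of the 4 SpyCatcher lists or all 4, by the number of lower-input PTBP1 lists they overlap, with exact 95% intervals (most are smaller than the points) and lines to guide the eye. For RBFOX2 the share goes from 1.09% with no lower input to 78.1% in the members.

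The SpyCatcher lists, each from 1 library, are smaller (16507 to 28586 clusters) and met fewer members. SpyCatcher 1.0 at 20 µg met 1.14% of all clusters and 26.4% (25.7 to 27.1) of the members. SpyCatcher 1.0 at 40 µg met 1.29% and 28.3% (27.5 to 29.0). SpyCatcher 2.0 at 20 µg met 1.77% and 34.5% (33.7 to 35.3), and at 40 µg 2% and 37.2% (36.3 to 38). These shares followed the order of the list sizes.
From 28.5% to 33.2% of the clusters in each of these lists lay on members. At 20 µg, 2689 members were met by both versions, 872 by version 1.0 only and 1964 by version 2.0 only. At 40 µg the numbers were 2952, 859 and 2060. With 1 library per setting, version, amount and library cannot be told apart.

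Any SpyCatcher list met 3.89% of all clusters and 52.6% (51.7 to 53.4) of the members, against 3.20% of the other clusters and 15.0% of those with exactly 2 lower inputs. Within width classes the comparison was 52.6% to 17.2%, and at exactly the same width 51.7% to 25.3%. Against exactly 2 lower inputs in the same width class it was 52.6% to 23.3%, and with the others weighted to the members' genes 52.5% to 5.46%. All 4 SpyCatcher lists met 0.303% of all clusters and 14.3% (13.7 to 14.9) of the members, and at exactly the same width the comparison was 13.3% to 2.50%. The members held 1929 of the 2921 clusters that all 4 lists met.

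The number of SpyCatcher lists on a member went with its width and with RBFOX2 overlap. The 6401 members on no SpyCatcher list had a median width of 20 nt, and 61.7% overlapped RBFOX2. With 1, 2 and 3 lists the median width was 31, 40 and 48 nt and the RBFOX2 share 85.4%, 92.9% and 96.8%. The 1929 members on all 4 lists had a median width of 65 nt, and 99.5% overlapped RBFOX2.

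RBFOX2 and all 4 SpyCatcher lists together met 0.291% of all clusters and 1919 members (14.2%). Neither RBFOX2 nor any SpyCatcher list met 2454 members (18.2%), which were 15 nt wide in the median. RBFOX2 alone met 3947 (29.3%), and SpyCatcher alone met 499 (3.7%). The other clusters were not split in this way, so the shares for neither, RBFOX2 alone and SpyCatcher alone describe the members only. No comparison at the same width was made for these shares.

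The widest of the 1919 members with RBFOX2 and all 4 SpyCatcher lists was the one in XIST. The next were in PLS3, an actin-bundling protein (527 nt, chrX:115649780-115650306, plus strand), in MATR3, a nuclear matrix RNA-binding protein (514 nt, chr5:139283437-139283950, plus strand), and in CCND2, the cell-cycle cyclin D2 (465 nt, chr12:4303188-4303652, plus strand). PLS3 was met by 11, 15 and 17 clusters at 100000, 10000 and 1000 cells and by 21 RBFOX2 clusters.
The other 6 lay in PAICS, a purine synthesis enzyme (461 nt), MCCC2, a mitochondrial carboxylase subunit (440 nt), HELLS (407 nt), MLF2 (396 nt), YWHAB, a phosphoprotein adaptor (392 nt), and TUBB4A, a tubulin (361 nt). The longest stretch shared by all 4 PTBP1 lists differed widely among them, at 493 nt in XIST, 56 nt in PLS3 and 7 nt in PAICS.

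The Cas13 proteins without guide met few members. Their lists hold few intervals, 3434 for dPspCas13b and 2662 for dRfxCas13d, after overlapping or touching ones were merged. These intervals are wide and cover 516258 and 499258 nt, against 94663 to 169685 nt in the SpyCatcher lists and 736613 nt in the RBFOX2 list. The part of list size in the low shares was not tested. The dPspCas13b list met 0.563% of all clusters and 2.65% (2.38 to 2.93) of the members, and the dRfxCas13d list 0.311% and 1.10% (0.928 to 1.29). With the other clusters weighted to the genes of the members, the comparison was 2.66% to 1.61% for dPspCas13b and 1.09% to 0.828% for dRfxCas13d. In the same width class it was 2.65% to 1.02% and 1.10% to 0.488%. Either Cas13 list met 439 members (3.25%) in 226 genes, and 252 of these members lay in the last 2000 nt of a protein-coding gene. NUCKS1, a chromatin protein, held 25 of them, XIST 18, and ADAR, an RNA-editing enzyme, 9. Other clusters on either Cas13 list were not counted in this way, so these numbers describe the members only.

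Members were spread over 3820 of the 14388 genes with a 10000000-cell cluster, or 26.5%. Of these genes 1659 held 1 member, 1386 held 2 to 4 and 775 held 5 or more. The 245 genes with 10 or more held 32.1% of all members, and the 10 genes with most held 4.77%. The chance to hold a member went with the number of clusters: 3.07% of genes with 1 to 9 clusters had one, and 78.5% of genes with 300 or more. The share of clusters that were members varied less over these gene classes, from 1.21% to 1.5%.

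HELLS, a helicase that remodels chromatin and is needed for DNA methylation, had the most members, 80 of 526 clusters. SLIT2, a secreted axon guidance ligand, had 77 of 710, XIST 76 of 195 and ANKRD17, an ankyrin-repeat protein with an RNA-binding KH domain, 72 of 885. SRPK1, the kinase of SR splicing factors, had 65 of 460. JPX and FTX, long noncoding RNAs that neighbour XIST and act on its expression, had 58 of 452 and 57 of 674. RBM26, an RNA-binding protein, had 57 of 460, the RNA helicase DDX17 51 of 146, and IRS4, an adaptor of insulin signalling, 50 of 109.
These 10 differed in how their members were supported. RBFOX2 met from 73.8% of the members in SRPK1 to 96.0% in IRS4. All 4 SpyCatcher lists met from 7.69% in SRPK1 to 28% in IRS4. XIST had narrow members, with a median of 13 nt, beside its member of 791 nt. ANKRD17 had the widest of the 10, with a median of 35 nt.

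Among genes with at least 100 clusters, the share that were members was highest in IRS4 (45.9%), XIST (39.0%) and DDX17 (34.9%). Then came FKBP11, a folding enzyme of the endoplasmic reticulum (26.4%), NUCKS1 (23.3%), EIF2S3, a subunit of a translation initiation factor (19.8%), and MORF4L2, a chromatin acetylation factor (15.8%). RNPEP, an aminopeptidase, had 15.7%, MIR222HG, a miRNA host transcript, 15.5% and HELLS 15.2%. These genes span from 12.6 kb (MORF4L2) to 68.1 kb (HELLS). Under overlapping genes of the same class and strand a cluster went to the shortest, so some members may belong to an overlapping gene. This ranking was not remade with other assignments.
At the other end, long genes with many clusters had no member. They were led by FOCAD (774 clusters over 340 kb), IMMP2L, a mitochondrial peptidase subunit (696 clusters over 900 kb), and EXOC4, an exocyst subunit (668 clusters over 848 kb). POLA1, the catalytic subunit of DNA polymerase alpha (667), and ASAP1, a regulator of ARF GTPases (638), also had none.

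PTBP2, the neuronal paralog whose exon skipping by PTBP1 is a textbook case, had 31 members of 411 clusters, and 25 of them overlapped RBFOX2. Of these, 6 overlapped RBFOX2 and all 4 SpyCatcher lists. On chromosome 1, 4 of those lie within 96780270 and 96781605, including members of 196 nt (chr1:96780570-96780765) and 188 nt (chr1:96781418-96781605), and the widest, 199 nt, lies at chr1:96806100-96806298. PKM, the pyruvate kinase gene whose pair of exclusive exons PTBP1 helps to select, had 22 of 177, of which 20 overlapped RBFOX2.
In PKM, 6 members overlapped RBFOX2 and all 4 SpyCatcher lists. On chromosome 15, 5 lie between 72202831 and 72203989, the widest of them 110 nt (chr15:72203189-72203298), and 1 of 129 nt lies at chr15:72230615-72230743, near the 5′ end of the gene. PTBP3 had 1 member of 210 clusters, and PTBP1 itself none of 79. Which exon or intron holds them was not analysed here.

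The share of clusters that were members is given for each gene list beside 1.40% over all genes. Over all genes with a cluster, 26.5% held a member, and this share went up with the number of clusters in the gene. Lists were not matched for gene length or for clusters per gene. In protein-coding genes of known strand the share was 3.10% under 10 kb, 2.28% from 10 to 50 kb, 1.25% from 50 to 200 kb and 0.577% in longer ones. In the SR proteins and their kinases it was 6.46% (125 members, 14 of 19 genes with clusters), and 4.07% without SRPK1. SRSF11 had 21 members, TRA2A 8 and SRSF1 7, while SRSF6, SRSF7, SRSF8, SRSF9 and CLK3 had none. In the hnRNP genes, which encode nuclear pre-mRNA packaging proteins, it was 5.61% (87 members, 14 of 22 genes), led by HNRNPC (17), HNRNPA2B1 (16), HNRNPD (12) and HNRNPK (11). HNRNPC members overlapped RBFOX2 in 9 of 17 cases and HNRNPK members in 11 of 11.

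The other splicing regulators had 4.06% (173 members, 15 of 25 genes), and 3.05% without RBM26. CELF1 had 25 members, the pyrimidine-binding proteins TIA1 and TIAL1 18 and 16, and MATR3, a cofactor of PTBP1, 12. The gene of RBFOX2 had 5 of 400 clusters, with 2 on the RBFOX2 list. Genes with splicing events linked to PTBP1 had 2.75% (82 members, 13 of 23 genes). Without PTBP2 the share was 1.98% (51 members), and PKM alone held 22 of those members. After PTBP2 and PKM the genes with most members were DLG4, a synaptic scaffold (6), TPM3, a tropomyosin (5), and MEF2A, a transcription factor (4). ACTN1, TPM1 and FGFR2 had none.

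Long noncoding RNAs on the list had 5.66% (137 members, 8 of 13 genes), and PVT1, NORAD and KCNQ1OT1 had none. JPX held 58 and FTX 57 of these members. Without JPX the share was 4.01%, and FTX held 57 of the 79 members left. The list does not hold XIST, and with it the share was 8.14%. MALAT1 is on the list, but no cluster was given to it. TALAM1, the gene of its antisense RNA, has no strand in the tables used and is not on the list. It held 14 members of 41 clusters. Axon guidance genes had 2.61% (116 members, 7 of 24 genes), of which 77 lay in SLIT2 and 23 in ROBO1, its receptor. Without SLIT2 the share was 1.05%, and ROBO2 had none.
Chromatin remodellers had 2.12% (137 members, 16 of 25 genes) and 0.960% without HELLS. CHD1 had 11 members, and CHD7, SMARCA4 and INO80 had none. Ribosomal protein genes, which are short and many, had 2.95% (40 members, 22 of 76 genes with clusters). This lies between the 2.28% of protein-coding genes from 10 to 50 kb and the 3.10% of those under 10 kb. Each list without its top gene stood at 0.960% to 5.22%.

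By class of gene, 92.1% of members lay in protein-coding genes, against 93.6% of the other clusters, and 4.14% (3.81 to 4.49) in long noncoding RNA genes, against 3.35%. Small RNA genes held 89 members (0.660%, 0.530 to 0.811), against 0.0664% of the other clusters. They comprised 25 members in tRNA genes, 23 in small nucleolar RNA genes and 19 in small nuclear RNA genes. The most in 1 gene were 6 of 11 clusters in RPPH1, the RNA of ribonuclease P, all 6 on the RBFOX2 list and 4 on all 4 SpyCatcher lists. RNU2-2, a spliceosomal RNA, had 4 of 6 clusters, and RMRP, the RNA of a related ribonuclease, 3 of 6. Copies of these RNAs occur elsewhere in the genome, and how reads with several matches were placed is not given in the sources used here. Outside genes of their strand lay 311 members (2.31%), close to the 2.37% of other clusters.

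Position along the gene was measured for the 12403 members in protein-coding genes of known strand. The last 2000 nt held 7.74% of all clusters there and 13.4% (12.8 to 14) of the members, against 7.66% of the others. Weighted to the genes of the members, the others had 12.4%, so most of this difference went with which genes hold members. The first 2000 nt held 4.32% of all clusters and 7% (6.56 to 7.46) of members. The others there had 4.28%, and 6.76% when weighted to the members' genes, which lies inside the members' interval.
With the gene span cut into 10 equal parts, the last held 18.7% (18.0 to 19.4) of members against 17.2% of the weighted others. The first held 13.0% (12.5 to 13.7) against 11.3%, and the seventh 7.26% (6.81 to 7.74) against 8.30%. Over all gene classes, genes with a member had a median length of 45.8 kb, against 29.7 kb in those with clusters and no member. In protein-coding genes the share of clusters that were members fell with length. It was 3.10% in genes under 10 kb, 2.28% from 10 to 50 kb, 1.25% from 50 to 200 kb and 0.577% in longer ones. The members there numbered 737, 4942, 5408 and 1316. Within each of these lengths the last 2000 nt held more of the members than of the others, from 53.2% (49.5 to 56.8) against 47.7% in the shortest to 2.81% (1.99 to 3.85) against 1.71% in the longest.

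The 1661 members in the last 2000 nt of 867 genes were wider, with a median of 47 nt against 28 nt in the rest of the gene. RBFOX2 overlapped 82.4% (80.5 to 84.2) of them against 77.2% (76.4 to 78.0) elsewhere, and all 4 SpyCatcher lists 19.4% (17.6 to 21.4) against 13.3% (12.6 to 13.9). DDX17 held 28 of its 51 members there and IRS4 18 of 50. KHSRP, an RNA-binding protein of splicing and mRNA decay, held 16 of 17. HCFC1, a transcriptional coregulator that spans 24.3 kb, held all 10 of its members there. MARCKSL1, an actin-binding protein, did too, but its gene spans only 2.4 kb, so these 2000 nt are most of it.

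The median distance from a member to the nearest other member was 406 nt, and 34.9% had another within 100 nt. Close spacing was general in the 10000000-cell list: a cluster of any kind lay within 100 nt of 96.6% of members and of 83.7% of the other clusters. The 1000 nt with most members lie in DDX17 (chr22:38483887-38484886, minus strand), inside the last 2000 nt of the gene, and hold 18. These 18 members covered 604 nt, 15 of them overlapped RBFOX2, and 298 nt were in all 4 PTBP1 lists. The whole stretch held 31 clusters at 10000000 cells, 34 at 100000, 38 at 10000 and 30 at 1000. RBFOX2 had 29 clusters there and the SpyCatcher lists 8 to 11 each.

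**Figure D2:**
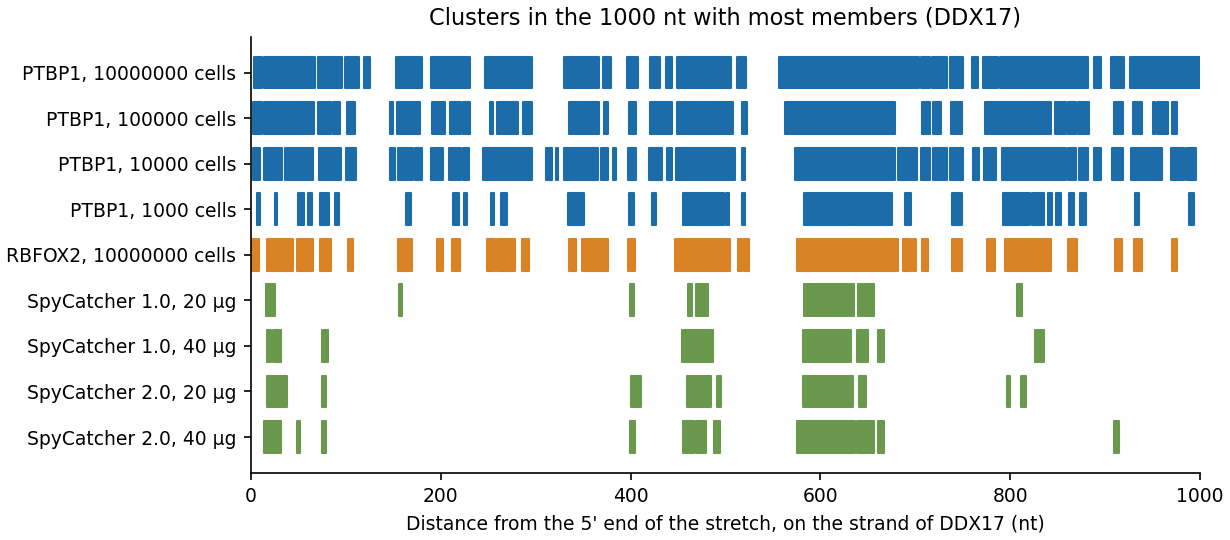
Clusters of each PTBP1 input, RBFOX2 and the 4 SpyCatcher settings in the 1000 nt with most members, in DDX17, by distance from the 5′ end of the stretch in nt; each bar is 1 cluster to scale. The 3 higher PTBP1 inputs cover 601 to 758 of the 1000 nt, RBFOX2 465 nt and the 1000-cell list 314 nt, and the SpyCatcher tracks hold 8 to 11 clusters.

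The next stretches of 1000 nt held 12 members in KHSRP (chr19:6413375-6414374, minus strand), 12 in EIF2S3 (chrX:24074720-24075719, plus strand), 12 in IRS4 (chrX:108720143-108721142, minus strand) and 11 in FKBP11 (chr12:48937380-48938379, minus strand). RBFOX2 met 10, 11, 11 and 11 of these. The SpyCatcher lists differed more, with 10 of 12 members on any of them in KHSRP and 5 of 12 in IRS4. FKBP11 had 39 clusters at 100000 cells and 15 at 1000 in its stretch. Because a cluster under overlapping genes of the same class and strand went to the shortest, a stretch may belong to an overlapping gene.

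The members lay unevenly on the 2 strands of the genome. The minus strand held 54% of all 10000000-cell clusters and 66.3% (65.5 to 67.1) of the members, against 53.8% (53.7 to 53.9) of the others. The share was 51.6% with no lower input, 55.1% with exactly 1 and 60.5% with exactly 2, and the lists themselves went from 55.4% at 100000 cells to 61.2% at 10000 and 69.3% at 1000. On each of chromosomes 1 to 22 and X, a higher share of minus-strand than of plus-strand clusters were members. On chromosome 1 these shares were 2.54% and 1.39%, and on chromosome 10, with the smallest gap, 1.38% and 1.25%.
The RBFOX2 list had 60.2% of its clusters on the minus strand and the SpyCatcher lists 59.8% to 62.3%. Members on the minus strand were narrower, with a median of 27 nt against 34 nt, and RBFOX2 met 76.9% (76.1 to 77.8) of them against 80.4% (79.2 to 81.5) on the plus strand. The part of library preparation or calling in this difference was not tested. Over both strands the share of clusters that were members was highest on chromosome X (2.30%) and chromosome 1 (2.01%) and lowest, among those 23 chromosomes, on chromosome 18 (0.924%). Of the 886 members on chromosome X, the neighbours XIST, JPX and FTX held 76, 58 and 57. The ranking was not remade without them.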

How the data were processed

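Per the labels' protocols, RNA of irradiated cells was cut with RNase I and made into uSpyCLIP libraries. Per the submitters' processing notes, reads were handled with Trim Galore 0.0.6 and STAR 2.7.9a on hg38. Nothing here states the site caller, its thresholds, removal of duplicates or pooling of libraries. The deposited lists hold positions (chromosome, start, end, strand) and no values, and their starts were counted from 0 and are given here from 1. Of the 47 samples in 20 groups, 11 lists of 11 groups were used, and the guide RNA lists were not used here.

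The members and the gene lists were chosen with earlier results of these data known. Overlap was at least 1 nt on 1 strand. Genes are RefSeq spans of GRCh38.p14, with the strand of 29078 genes from the RefSeq windows and miRNA tables. A further 1791 protein-coding genes took the strand of at least 90% of at least 3 clusters (96.7% agreement in the 8825 genes with both), and 28806 had none. Each cluster was given to the gene that spans its middle, on its own or an unknown strand, small RNA genes first, then protein-coding, long noncoding and other genes, and the shortest on ties. Weighted comparisons averaged the other clusters by the members' width class, exact width or gene.

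Genes were named by rule: the PTBP1 family and PKM, the 10 with most members, the 10 with the highest share of members among those with at least 100 clusters, the 5 with most clusters and no member, up to 8 of each list, and the genes of the widest, longest-shared and densest members. Computation used Python 3.11.15, numpy 2.4.6, pandas 2.3.3, scipy 1.17.1 and matplotlib 3.10.9. The code was tested on simulated sites and gave 0 wrong answers. Alternatives were other overlap rules, each lower list left out, a width minimum, merged clusters and other comparison sets.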

Additional observations from a re-analysis of the deposited data

How the results depend on the processing

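The number of members moved by over 1.5 times only without the 1000-cell list, to 124133, with a median width of 13 nt; RBFOX2 then met 37.9%, any SpyCatcher list 19.1% and all 4 2.24%, and 8.63% lay in the last 2000 nt. Without the 10000-cell list these values were 24 nt, 68.8%, 45.8%, 11.9% and 11.9%. Without the 100000-cell list RBFOX2 met 76.9% and any SpyCatcher list 51.6%. With 3 nt of overlap they met 79.4% and 53.6%, at a median width of 31 nt, and with 50% of the shorter cluster RBFOX2 met 79.2%. With gaps of up to 5 nt the 5 values were 25 nt, 70.5%, 46.6%, 12.1% and 12.3%. With members of at least 10 nt they were 33 nt, 81.8%, 55.6%, 15.4% and 14.2%. With clusters up to 10 nt apart merged they were 65 nt, 80.7%, 57.8%, 16.7% and 12%. The difference between members and other clusters in RBFOX2 overlap was 44.1 percentage points in the same width class, 64.5 in the same genes, 33.3 at exactly the same width, 45.4 against exactly 2 lower inputs and 31.4 against those in the same width class. For any SpyCatcher list these differences were 35.4, 47.0, 26.4, 37.5 and 29.2. The comparison at exactly the same width, the one with exactly 2 lower inputs within width classes, the one without the 10 top genes and the fixed length of the motif pieces were chosen after seeing the data. No value changed direction under these alternatives, and the causes of the moves were not tested. No paired analysis was possible because each group has 1 list and the lists carry no replicate number. Leaving out a library was not possible either.

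The lists carry no read counts, so depth, abundance of the transcript and strength of binding could not be separated from detection at low input. The intervals cover counting error only and treat clusters as independent, which neighbours on 1 transcript are not. Exons, introns and untranslated regions were not analysed here.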

Other observations

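In the 245 genes with 10 or more members, support by the other lists varied from gene to gene, and the genes named here were chosen after their values were seen. RBFOX2 overlapped a median of 84.6% of the members of a gene (quartiles 75% and 91.7%). The lowest was EZH2, the methyltransferase of Polycomb repressive complex 2, with 5 of 16 members on the RBFOX2 list and 7 on any SpyCatcher list. NSL1, a kinetochore protein, had 5 of 11. In several genes all members overlapped RBFOX2, among them CLCC1 (23 members), CHD1L (20) and TASOR (16), and EIF3D, PON2 and CROCCP2 with 10 each.

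Any SpyCatcher list met a median of 55.2% of the members of these genes. HDAC2, a histone deacetylase, was lowest with 2 of 12, and RBM4, a splicing regulator, followed with 3 of 12. In SF1, the protein that binds the branch point, all 10 members were met by a SpyCatcher list and 9 by RBFOX2. All 4 SpyCatcher lists met 6 of 10 members in HOXB8, a homeobox gene of 2.95 kb, and 9 of 15 in GANAB, a glucosidase subunit, but none of 24 in STAG1, a cohesin subunit, where RBFOX2 met 15. The widest members without RBFOX2 overlap lay in APEX2 (147 nt), GSE1 (106 nt), G3BP1 (106 nt), DVL3 (105 nt) and KAZN (100 nt). Those in APEX2 and KAZN were each met by 2 SpyCatcher lists, and the others by none.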
